A study of Mus musculus with 415 samples.

Results

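The microRNA miR-9 is made in the mouse from 3 separate loci, Mir9-1, Mir9-2 and Mir9-3, and their chromatin accessibility was read here in single cells. The deposited table was searched for regions that overlap 3 windows on mouse build mm9, chr3:88000000-88040000 for Mir9-1, chr13:83820000-83980000 for Mir9-2 and chr7:86630000-86700000 for Mir9-3. In all, 20 of the 23180 regions of the table did so, 3 at Mir9-1, 9 at Mir9-2 and 8 at Mir9-3. The windows were set by position alone, but the loci were picked with earlier results of the same table known, among them that Mir9-3 was open in a group of the cells, so all values below are descriptions.

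All samples were single cells of 1 group. They came from R1 mouse embryonic stem cells, grown as embryoid bodies in hanging drops during 48 hours and then cultured for 4 days in medium with 0.5 mM retinoic acid, the concentration the labels give. Chromatin was tagmented with the transposase Tn5 on a Fluidigm C1 chip, so that sequenced fragments mark accessible DNA. No untreated cells and no separate cultures are named, so the series holds 1 sample in the statistical sense and no test was run across cells.

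MicroRNAs are short RNAs that pair with messenger RNAs, mainly through the seed at bases 2 to 8, and lower their translation and stability. miR-9 is abundant in the developing vertebrate nervous system, where it is known to act on the balance between progenitor growth and neuronal differentiation, with the progenitor regulators Hes1 and Nr2e1 among its known targets. Retinoic acid is widely used to direct embryoid bodies towards neural fates. Each miR-9 hairpin lies inside a long noncoding RNA gene that can serve as its host transcript. In the RefSeq annotation of GRCm38.p6 these were Gm3764 for Mir9-1, C130071C03Rik for Mir9-2 and Mir9-3hg for Mir9-3. Positions of genes on that build were not carried to mm9, so the hairpins and host gene starts were not placed within the windows, and markers of neural, endoderm or pluripotent cells were not read.

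The 3 loci are of interest together because they encode the same mature products. RefSeq (GRCm38.p6, plus strand at each locus) gives 1 sequence for each arm at all 3 loci, shown with the seed in capitals.
miR-9-5p: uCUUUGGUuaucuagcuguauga
miR-9-3p: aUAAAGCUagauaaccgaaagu
Among 1679 mature mouse miRNA names in that table, no other shares the seed of either arm. The hairpins differ outside the mature arms, which are in capitals below.
Mir9-1 hairpin: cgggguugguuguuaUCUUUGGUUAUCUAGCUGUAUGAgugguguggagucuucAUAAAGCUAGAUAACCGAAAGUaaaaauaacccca
Mir9-2 hairpin: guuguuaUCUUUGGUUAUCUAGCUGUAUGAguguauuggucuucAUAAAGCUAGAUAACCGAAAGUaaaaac
Mir9-3 hairpin: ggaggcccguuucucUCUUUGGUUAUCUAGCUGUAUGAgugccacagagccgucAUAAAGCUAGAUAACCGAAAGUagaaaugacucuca
They are 89, 72 and 90 bases long. The loop between the arms holds 16 bases in Mir9-1 and Mir9-3 and 14 in Mir9-2. In global alignments the Mir9-1 hairpin matched that of Mir9-3 at 78.9% of columns and that of Mir9-2 at 78.7%, and Mir9-2 matched Mir9-3 at 71.1%. Since the mature products are identical, expression of the miRNA alone would not tell which locus made it, whereas accessibility is read per locus.

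Any value above 0 counted as an open region in that cell, and the signal that matches the aligned bases of 1 read pair was taken as 1 fragment. The cells held 756 to 12267 open regions each, with a median of 3928. Regions are numbered below by their order along each window. Intervals are exact (Clopper-Pearson) 95% intervals for shares of cells and cover the counting of cells only.

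Most of the miR-9 regions were open in few cells, and each locus had 1 region that was open more widely than the others. The 20 regions were open in 7.71% to 33.3% of the cells with a median of 11.1%, against a median of 14.5% over all regions of the table. Of the 20, 12 lay below that median, which is near the share of all regions that do, since a median divides them evenly. They spanned up to 1519 bp, with a median of 622.5 bp, against 762 bp over all regions. In open cells the typical value was a single fragment.

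At Mir9-2, region 4 (chr13:83870279-83871137) was open in 33.3% of the cells (interval 28.7% to 38.01%), more than 88.7% of all regions of the table. Its open cells held between 0.189 and 4.63 fragments with a median of 1. This was the most widely open miR-9 region, and its interval did not overlap that of any other Mir9-2 region. Region 7 (chr13:83879002-83879634) followed with 83 cells (20%, 16.3% to 24.2%). Regions 9 (chr13:83884037-83885017) and 3 (chr13:83869063-83869473) were open in 17.1% (13.6% to 21.1%) and 15.7% (12.3% to 19.5%). These 3 intervals overlap, so their order is not set. The other 5 regions were open in 7.95% to 10.8% of the cells. The midpoints of all 9 regions lay 34.8 to 64.5 kb from the start of the window, which held none in its remaining length.

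At Mir9-3, region 4 (chr7:86649603-86651122) was open in 27.2% of the cells (23.001% to 31.8%), with 0.0878 to 5.12 fragments in open cells and a median of 1. It was the widest of the 20 regions, with 1519 bp. Region 6 (chr7:86670572-86671434) was open in 90 cells (21.7%, 17.8% to 25.97%), and region 8 (chr7:86680248-86681263) in 77 cells (18.6%, 14.9% to 22.6%). The intervals of neighbours in this order overlap. The other 5 regions were open in 8.43% to 12.8% of the cells. More than 1 fragment was present in 37.8% of the open cells at region 6 and in 37.2% at region 4, the highest shares among the 20 regions, against a median of 24.2% over all regions.

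Mir9-1 was the least accessible locus. Its most widely open region, region 3 (chr3:88035006-88035619), was open in 72 cells (17.3%, 13.8% to 21.3%), with 0.0608 to 4.26 fragments in open cells and a median of 1. This interval lay below those of the leading regions of Mir9-2 and Mir9-3, which overlap each other. Regions 1 (chr3:88019262-88020106) and 2 (chr3:88031970-88032222) were open in 32 cells (7.71%, 5.33% to 10.7%) and 35 cells (8.43%, 5.94% to 11.5%). The first is close to the lowest share in the table, since every deposited region was open in at least 7.47% of the cells and rarer ones were not analysed here.

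**Figure D1:**
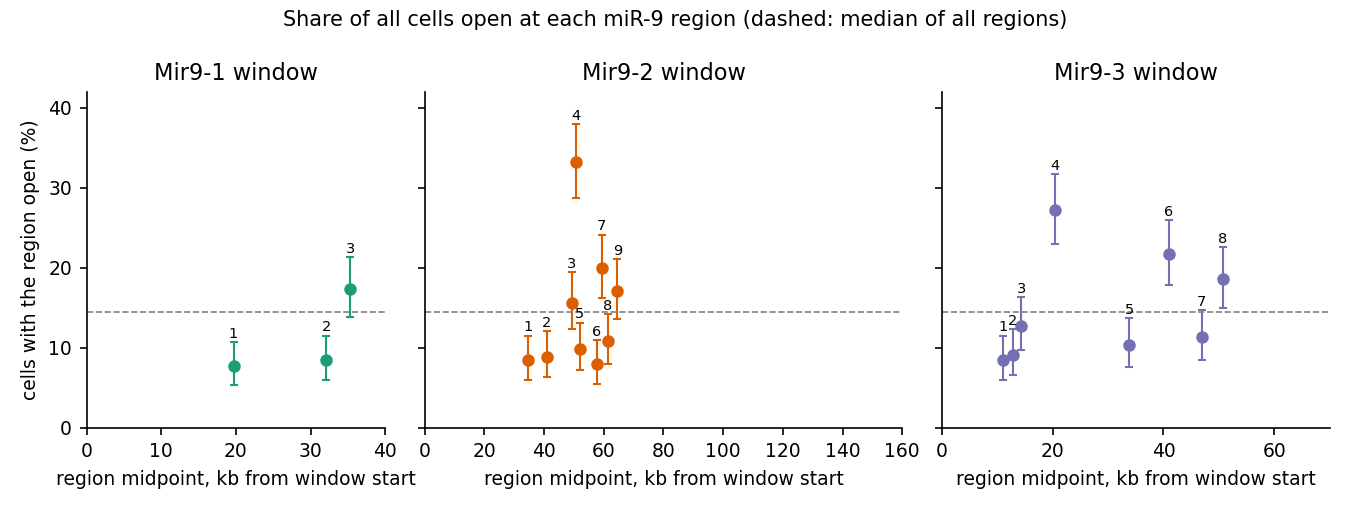
Share of all cells with each miR-9 region open (y axis, percent, bars are exact 95% intervals) by distance of the region's midpoint from the start of its window (x axis, kb), numbered by position, with the median of all 23180 regions dashed at 14.5%. One region per window stands highest, at 17.3% in Mir9-1, 33.3% in Mir9-2 and 27.2% in Mir9-3.

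Just outside the windows, accessibility differed between the loci. The nearest region before the Mir9-1 window was open in 43.4% of the cells and the nearest after it in 45.3%. For Mir9-2 these shares were 8.43% and 10.4%, and for Mir9-3 48.0% and 16.4%. These neighbours lay 17.7 to 60.3 kb outside, and whether they belong to other genes was not checked. On GRCm38.p6 the nearest protein-coding genes in the table included Mef2c, a muscle and neuronal transcription factor, before Mir9-2, Polg, the mitochondrial DNA polymerase, before Mir9-3, and the ammonia transporter genes Rhbg and Rhcg after Mir9-1 and Mir9-3.

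A locus was called open when any of its regions was. Mir9-2 was open in 62.9% of the cells (58.04% to 67.6%), Mir9-3 in 58.1% (53.2% to 62.9%) and Mir9-1 in 26.99% (22.8% to 31.5%). Mir9-2 and Mir9-3 overlap, and Mir9-1 lies below both, but it also has 3 regions where the others have 9 and 8. Among open cells, 2 or more regions of the same locus were open in 59.004% for Mir9-2, 53.1% for Mir9-3 and 19.6% for Mir9-1. Up to 7 of 9, 8 of 8 and 3 of 3 regions were open in a single cell. Over the 3 loci together, the median cell had 2 of the 20 regions open, 83 cells had none, and the highest number was 15, in 2 cells.

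These shares followed depth. The cells were divided into 4 classes of nearly equal size by their number of open regions. In the shallowest class (756 to 2539 open regions) Mir9-2 was open in 32.7% of the cells, and in the following classes in 54.8%, 72.8% and 91.3%. Mir9-3 gave 34.6%, 42.3%, 66.02% and 89.4%. To allow for depth, the probability of an open locus was modelled as 1 − exp(−locus rate × cell rate), with cell rates that match each cell's number of open regions. The expected shares were 34.8%, 55.8%, 72.4% and 88.6% for Mir9-2 and 30.6%, 50.3%, 66.8% and 84.7% for Mir9-3, all within the observed intervals. Mir9-1 departed from this curve. It was open in 20.2% (13.0% to 29.2%), 12.5% (6.83% to 20.4%), 19.4% (12.3% to 28.4%) and 55.8% (45.7% to 65.5%) of the 4 classes, where 11.1%, 20.1%, 29.9% and 46.8% were expected. The shallowest class lay above its expected share and the third class below it, beyond counting error.

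**Figure D2:**
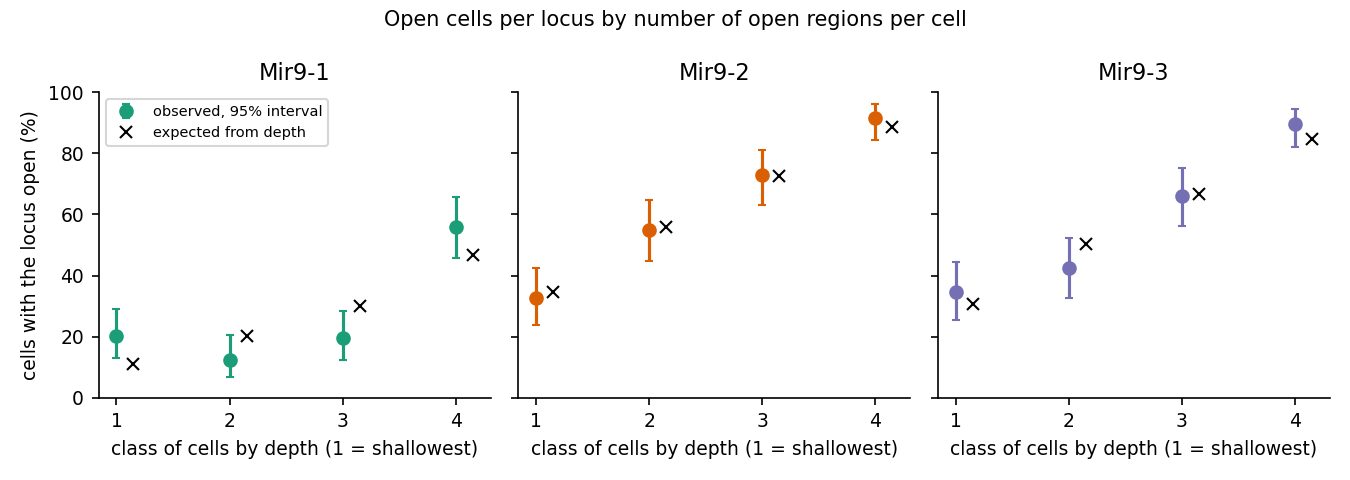
Share of cells with each locus open (y axis, percent, filled points with exact 95% intervals) in 4 classes of the cells ordered by number of open regions (x axis, shallowest first), beside the share expected from depth (crosses). Mir9-2 and Mir9-3 follow the expected shares, whereas Mir9-1 is above its expected 11.1% in the shallowest class, at 20.2%.

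Cells with all 3 loci open and cells with none were both more numerous than the depth model gave, by amounts at or within the Poisson intervals of the counts. All 3 loci were open in 77 cells (18.6%, 14.9% to 22.6%), where 60.5 were expected, a ratio of 1.27 with an exact Poisson interval of 1.004 to 1.59. None was open in 83 cells, where 69.4 were expected (ratio 1.20, 0.952 to 1.48). In between, 1 locus was open in 30.6% of the cells, with 33.2% expected, and 2 loci in 30.8%, with 35.5% expected. Cells with all 3 loci open were deep, with a median of 6701 open regions, against 2297 in cells with none. Since Mir9-1 did not follow the depth curve, the expected numbers were also computed with the locus rates fitted within each of the 4 depth classes, a choice made after seeing the data. The ratio for all 3 loci was then 1.20 (0.948 to 1.501), with 64.1 cells expected, and that for none was 1.18 (0.942 to 1.47). In the deeper cells alone the ratio for all 3 loci was 1.27 (0.991 to 1.61). These intervals are of the observed counts alone and leave out that the expected numbers were fitted to each locus's total. Whether cells with all 3 loci open exceed the number that depth gives is therefore not decided by them.

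For single pairs of loci the differences from the expected numbers were also within the Poisson intervals of the counts. These intervals likewise leave out the fit to each locus's total. An interval that holds 1 therefore does not show that a pair opened as depth alone gives. Mir9-1 and Mir9-3 were both open in 92 cells against 77.1 expected (ratio 1.19, 0.962 to 1.46). Mir9-1 and Mir9-2 were both open in 89 cells against 82.3 expected (1.08, 0.869 to 1.33), and Mir9-2 and Mir9-3 in 42.9% of the cells against 40.9% expected (1.05, 0.901 to 1.22). The residuals from the expected values correlated at 0.186, 0.0776 and 0.0741 in the same order, as a description over cells that share their library depth. With rates fitted within depth classes the ratios were 1.16, 1.08 and 1.04, and without the correction for depth they would have read 1.41, 1.26 and 1.17.

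The pair of Mir9-1 and Mir9-3 can also be read as shares. In cells with Mir9-3 open, Mir9-1 was open in 38.2% (32.01% to 44.6%), against 11.5% (7.16% to 17.2%) of cells with Mir9-3 closed. The share expected from depth was 32.2% in cells with Mir9-3 open and 19.8% in those with it closed. The first lay within the observed interval and the second outside it, and both rest on the depth curve that Mir9-1 did not follow. In the other direction, Mir9-3 was open in 82.1% (73.8% to 88.7%) of cells with Mir9-1 open, where 68.6% was expected, outside that interval. It was open in 49.2% (43.4% to 54.95%) of cells with Mir9-1 closed, where 54.2% was expected, within the interval. For Mir9-2 and Mir9-3 the shares were closer to those expected. Mir9-3 was open in 68.2% of cells with Mir9-2 open (65.7% expected) and in 40.9% of those with it closed (45.2% expected).

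Counting single regions in place of whole loci gave larger ratios for all 3 pairs of loci. The sizes are not directly comparable, since a ratio cannot rise as far for loci open in many cells as for regions open in few. Of the pairs of regions that lie in different miR-9 loci, 83.7% were open together in more cells than expected, where 49% of all pairs of regions on different chromosomes of the table were. The median ratio was 1.21 against 0.995 over all such pairs. A ratio of at least 2 was reached by 5 pairs, or 4.07%, against 0.49% of all pairs. Summed over pairs, the ratio of observed to expected joint openings was 1.35 between Mir9-1 and Mir9-3, 1.25 between Mir9-1 and Mir9-2 and 1.21 between Mir9-2 and Mir9-3, against 0.99904 over all pairs. With rates fitted within depth classes the summed ratios were 1.22, 1.18 and 1.13, and all pairs of the table were not refitted in this way. Pairs that share a region or a cell are not independent, and low expected counts spread single ratios widely.

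Regions of the same locus opened together more than most regions at such distances. Summed ratios were 1.61 at Mir9-1 (3 pairs), 1.42 at Mir9-3 (28 pairs) and 1.24 at Mir9-2 (36 pairs). In the deeper cells they were 1.59, 1.31 and 1.16. Between regions of different miR-9 loci the sums were 1.21 to 1.35, as given above. Whether regions of the same locus opened together more than regions of different miR-9 loci was not tested. A ratio of at least 2 was reached by 7 of the 67 pairs, against 1.17% of all pairs under 200 kb apart on 1 chromosome. Of those 86224 pairs, 62682 were 50 to 200 kb apart, whereas miR-9 pairs were at most 38.99 kb apart. By gap, it was reached by 2 of 6 miR-9 pairs under 2 kb, against 4.71% of all pairs at that distance. At 2 to 10 kb it was 1 of 24 against 2.51%, and at 10 to 50 kb 4 of 37 against 1.46%. At gaps of 10 to 50 kb the summed ratio was 1.36 over 37 miR-9 pairs, against 1.06 over all 18915 pairs in the table at that distance, and at 2 to 10 kb it was 1.296 over 24 pairs against 1.10. Under 2 kb, 6 pairs gave 1.301 against 1.14. The summed miR-9 ratios did not fall with distance over this range as those of all pairs did. They rest on few pairs that share regions, and the loci contribute unequally to the distance classes, so a trend with distance was not tested.

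**Figure D3:**
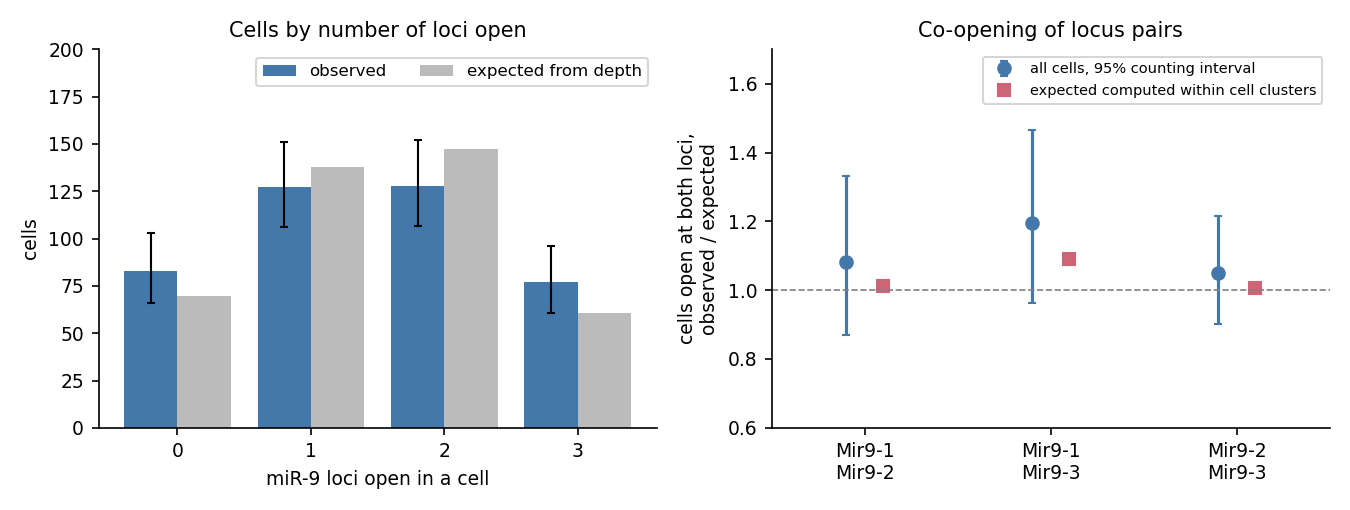
Left, number of cells (y axis) by number of miR-9 loci open (x axis), observed (bars with exact 95% Poisson intervals) beside that expected from depth. Right, cells with both loci of a pair open, observed over expected (y axis, dashed line at 1), over all cells with 95% counting intervals (circles) and with the expected number computed within cell clusters (squares), which lie at 1.01, 1.09 and 1.01.

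The co-opening was next set beside a grouping of the cells that did not use these loci. All 3 loci lie on odd-numbered chromosomes, so all cells but 1, which had fewer than 1000 fragments, were grouped into 3 clusters from the 10319 regions of the even-numbered autosomes alone. Clusters 1, 2 and 3 held 45.7%, 28.02% and 26.3% of these cells, with medians of 3427, 4822.5 and 3715 open regions. The clusters are given by number, since no gene positions on mm9 were read.

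In these clusters all 3 miR-9 loci were most accessible in cluster 2 and least in cluster 3. Mir9-3 was open in 87.1% of cluster 2 (79.6% to 92.6%), against 46.98% of the other cells (41.2% to 52.8%). Mir9-1 was open in 44.8% of cluster 2 (35.6% to 54.3%), against 20.1% of the other cells (15.7% to 25.1%), and Mir9-2 in 83.6% (75.6% to 89.8%), against 55.03% (49.2% to 60.8%). Cluster 2 was the deepest, and with shares scaled by depth the ratios were 1.57 for Mir9-3 (1.21 to 2.05), 1.72 for Mir9-1 (1.16 to 2.53) and 1.31 for Mir9-2 (1.01 to 1.695). For Mir9-1 the scaled ratios of all clusters rest on the depth curve that this locus did not follow, so depth is not fully allowed for in them. All 3 loci were open in 41 cells of cluster 2, or 35.3%, and none in 2 cells, or 1.72%. The first place of cluster 2 depended on the clustering. With the first component kept, 46.2% of the cells in the cluster matched to cluster 2 came from cluster 2. The cluster matched to cluster 1 was then ahead of it at all 3 loci. Scaled ratios were 1.56 against 1.42 for Mir9-1, 1.196 against 1.13 for Mir9-2 and 1.25 against 1.17 for Mir9-3. The cluster matched to cluster 3 stayed lowest, at 0.289, 0.688 and 0.617.

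In cluster 3 the strongest difference was at Mir9-1. It was open in 10 cells (9.17%, 4.49% to 16.2%), against 33.4% of the other cells (28.2% to 39.04%), a depth-scaled ratio of 0.287 (0.133 to 0.549). Mir9-3 was open in 38.5% (29.4% to 48.3%), against 65.2% (59.6% to 70.6%), a scaled ratio of 0.589 (0.412 to 0.825). Mir9-2 gave 47.7% (38.1% to 57.5%), against 68.5% (62.99% to 73.7%), and a scaled ratio of 0.690 (0.499 to 0.939). All 3 loci were open in 8 cells of cluster 3 (7.34%) and none in 41 (37.6%). In cluster 1 the scaled ratios were 1.16, 1.02 and 0.939 for Mir9-1, Mir9-2 and Mir9-3, and all 3 intervals held 1. With more than 1 fragment required they were 0.490, 0.665 and 0.702, so the direction turned for Mir9-1 and Mir9-2.

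The regions within a locus did not share these differences evenly. With shares scaled by depth, 8 of the 20 miR-9 regions were at least 2-fold higher in cluster 2 than in the other cells, against 8.17% of the 12362 regions on odd-numbered autosomes, and none was 2-fold lower, against 9.43%. The median ratio of the 20 was 1.803, against 0.943 over all of them. In cluster 3, 10 of the 20 were at least 2-fold lower, against 21.9% of all, and none was 2-fold higher, against 10.6%. In cluster 1, 5 were 2-fold lower (10.9% of all) and 1 was higher (7.32% of all). Every deposited region was open in at least 7.47% of all cells. Regions 5 and 8 of Mir9-2 and 2, 5 and 7 of Mir9-3 were open in 2.68% to 4.70% of cells outside cluster 2. They reached that floor only through cluster 2, so their ratios in clusters 1 and 2, here and below, are set in part by it. The same floor held for all regions compared.

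At Mir9-2, regions 5, 7 and 8 were at least 2-fold higher in cluster 2. Region 8 (chr13:83881279-83881591) was open in 31.9% of cluster 2 (23.6% to 41.2%), against 2.68% of the other cells (1.17% to 5.22%), a scaled ratio of 8.78 (4.02 to 21.8). Region 5 (chr13:83871829-83872134) was open in 28.4% (20.5% to 37.6%), against 2.68% (1.17% to 5.22%), a ratio of 7.81 (3.54 to 19.6). Region 7 was open in 45.7% (36.4% to 55.2%), against 10.1% (6.90% to 14.1%), a ratio of 3.43 (2.15 to 5.57). Region 3 was open in 26.7% (18.9% to 35.7%), against 11.4% (8.03% to 15.6%), a ratio of 1.75 (1.04 to 2.94). Region 4, which is the most widely open of the locus and ends 0.692 kb before region 5, was nearly even. It was open in 28.6%, 43.1% and 31.2% of clusters 1, 2 and 3, with scaled ratios to the other cells of 0.918, 1.15 and 0.947, whose intervals all held 1. Of the 52 cells of cluster 3 with Mir9-2 open, 34 had region 4 open.

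Region 6 of Mir9-2 (chr13:83877556-83877921) had another pattern. It was open in 11.1% of cluster 1 (7.01% to 16.5%), against 5.33% of the other cells (2.79% to 9.13%), a scaled ratio of 2.59 (1.21 to 5.76), and it is the 1 region counted as higher there. In cluster 3 it was open in 0 cells, which allows a share of up to 2.75% at 3 counts and of up to 3.33% by the exact interval, against 10.8% of the other cells (7.57% to 14.9%). Its ratio in cluster 2 was 1.08 (0.483 to 2.29).

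At Mir9-3, 4 regions were more than 2-fold higher in cluster 2. Region 5 (chr7:86663480-86664128) was open in 27.6% (19.7% to 36.7%), against 3.69% of the other cells (1.86% to 6.51%), a scaled ratio of 5.51 (2.71 to 12.1). Region 7 (chr7:86676579-86677154) was open in 28.4% (20.5% to 37.6%), against 4.70% (2.59% to 7.76%), a ratio of 4.48 (2.33 to 9.06). Region 2 (chr7:86642573-86642969) gave a ratio of 3.63 (1.79 to 7.73) and region 6 one of 2.55 (1.65 to 3.98). The most widely open region, region 4, was open in 46.6% of cluster 2 (37.2% to 56.05%), against 19.8% (15.4% to 24.8%), a ratio of 1.81 (1.23 to 2.67), and unlike its counterpart at Mir9-2 it was also lower in cluster 3, with a ratio of 0.517 (0.289 to 0.872). Whether the 2 leading regions differ in this was not tested. Regions 1 and 3 had intervals that held 1 in all 3 clusters.

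At Mir9-1, region 3 followed the clusters most closely. It was open in 33.6% of cluster 2 (25.1% to 42.98%), against 11.1% of the other cells (7.75% to 15.2%), a scaled ratio of 2.28 (1.40 to 3.74). In cluster 3 it was open in 3.67% (1.01% to 9.13%), against 22.3% (17.7% to 27.4%), a ratio of 0.174 (0.0462 to 0.467). Region 2 had a ratio of 1.997 in cluster 2 (0.971 to 4.12) and of 0.282 in cluster 3 (0.0552 to 0.900). Region 1 had a ratio of 0.986 in cluster 2 and of 0.430 in cluster 3, with intervals that held 1.

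**Figure D4:**
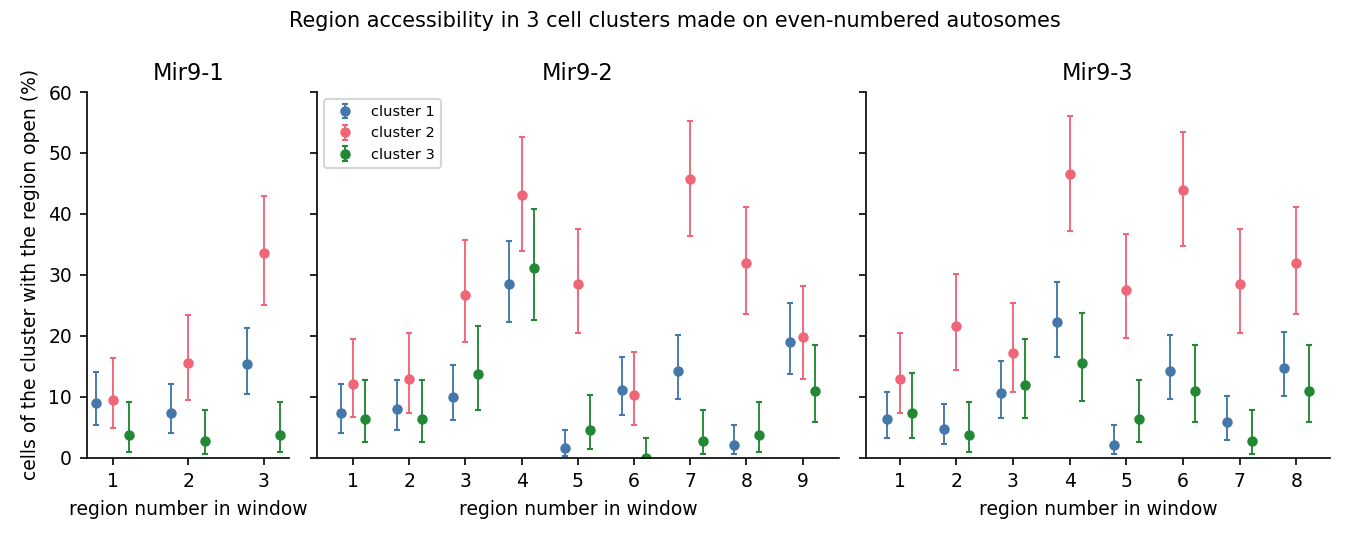
Share of the cells of each cluster with each miR-9 region open (y axis, percent, observed and not scaled by depth, bars are exact 95% intervals), by region number along its window (x axis). Cluster 2 stands highest at most regions, whereas region 4 of Mir9-2 is at 28.6%, 43.1% and 31.2% in clusters 1, 2 and 3.

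With the expected numbers computed within each cluster, the ratios for joint opening were smaller. The ratio for Mir9-1 with Mir9-3 was 1.09, in place of 1.19 over all cells, and those for Mir9-1 with Mir9-2 and Mir9-2 with Mir9-3 were both 1.01, in place of 1.08 and 1.05. Summed over pairs of regions, the ratios were 1.11, 1.06 and 1.0004, in place of 1.35, 1.25 and 1.21. Within cluster 2 alone the locus ratios were 0.961 to 0.976, and within cluster 3 they were 1.19 to 1.94 with intervals that all held 1, on 8 to 27 cells with both loci open.

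Cells were also compared by title number, whose meaning the labels do not give, in 4 consecutive sets. Mir9-1 was open in 24.04%, 20.2%, 34.6% and 29.1% of the sets, Mir9-2 in 58.7%, 59.6%, 65.4% and 67.96%, and Mir9-3 in 60.6%, 51.9%, 63.5% and 56.3%, with overlapping intervals for each locus. The share of cluster 3 was 37.5%, 37.9%, 15.4% and 14.6% of these sets. Within the sets, the ratio for Mir9-1 with Mir9-3 was 1.17, 1.37, 1.13 and 1.15, that for Mir9-1 with Mir9-2 was 1.20, 1.22, 1.10 and 0.856, and that for Mir9-2 with Mir9-3 was 1.13, 1.13, 0.976 and 0.984. Intervals in every set held 1.

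Regions elsewhere in the genome whose pattern over cells was most like that of the miR-9 loci were looked up on chromosomes other than 3, 7 and 13. Likeness was the correlation over all cells between a region's depth-corrected residual and the mean residual of the 3 loci, and 1% of the 19434 regions exceeded 0.179. The highest value was 0.262, at chr6:91251834-91252357, which was open in 36.4% of cells with all 3 loci open and in none of the 83 cells with none. These 2 shares are fixed in part by the choice of the region and are not scaled by depth. The median depth was 6701 open regions in the first cells and 2297 in the second. The region chr11:68087401-68088318 also reached 0.262, followed by chr4:7924210-7925018 (0.259), chr15:85291577-85292385 (0.252) and chr17:89162917-89163820 (0.251). Their shares by cluster are a description fixed in part by the choice, since they were picked for likeness to loci that were high in cluster 2 and those on chromosomes 4 and 6 also helped to form the clusters. The 5 were open in 32.8% to 54.3% of cluster 2, 3.70% to 15.3% of cluster 1 and 5.50% to 12.8% of cluster 3. For single loci the highest correlations were 0.280 for Mir9-1 at chr17:89157377-89157854, near the region just named, 0.206 for Mir9-2 at chr1:129427607-129428316 and 0.250 for Mir9-3 at chr6:91251834-91252357. These values were the highest of many and lean high, and the genes at these regions were not read.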

How the data were processed

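Chromatin accessibility was measured in 415 single cells. The authors deposited 1 table of whole-number signal per region and cell. Of the values above 0, 37.6% equal 148 and 51.1% are multiples of 74, as for aligned bases of paired reads, so they were read as signal and not as counts of reads. The submitters' processing notes name MACS2 and mm9. Not given in the sources used here are the aligner, duplicate removal and region choice. No doublet caller was run. The members, lists and comparisons were chosen with earlier results of these data known. Every region in the windows is reported, with the nearest outside. Region and cell rates were fitted to both margins of the whole table (numpy 2.4.6). The calculation was tested for single regions on data simulated with that same model. Such a test cannot show that the model holds for whole loci or for these cells. Clusters came from term-frequency-weighted values (scaled by 10000, logged), singular value components 2 to 10 and k-means with 50 starts (scikit-learn 1.9.0). Cells were thinned to 1500 open regions, averaged over all possible draws, which left out 33 cells. Hairpins were aligned with Biopython 1.88. Lists of marker and target genes needed positions on mm9 and were not run. Counts had been assumed in the minimum of 1000 per cell, which was read as fragments and left out 1 cell.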

Additional observations from a re-analysis of the deposited data

How the results depend on the processing

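Depth and the definition of open set the level of every share. With more than 1 fragment required, Mir9-1, Mir9-2 and Mir9-3 were open in 6.99%, 21.2% and 23.4% of cells, in the deeper cells in 37.5%, 82.2% and 77.9%, and after thinning in 10.8%, 35.8% and 30.8%. All 20 single regions moved likewise. Ratios for pairs of loci moved beyond their interval only with more than 1 fragment, for Mir9-1 with Mir9-3 (1.52). With only the most widely open region of each locus, that for Mir9-1 with Mir9-2 was 0.906 (0.602 to 1.31). For all 3 loci, the ratio of 1.27 had intervals that held 1 in the deeper cells (1.27, 0.991 to 1.61), with more than 1 fragment (1.53, 0.698 to 2.90, on 9 cells) and with rates fitted within depth classes (1.20, 0.948 to 1.501). Summed region pairs, whose alternatives were chosen after seeing the data, gave 1.06, 1.11 and 1.0004 with expected numbers within clusters, 1.10 for Mir9-1 with Mir9-2 with more than 1 fragment, and 1.13 for Mir9-2 with Mir9-3 within depth classes. With more than 1 fragment, the scaled ratios of Mir9-1, Mir9-2 and Mir9-3 were 0.490, 0.665 and 0.702 in cluster 1, and 3.74, 2.25 and 2.37 in cluster 2. In cluster 3 they were 0.494 for Mir9-2 and 0.397 for Mir9-3. Thinned, cluster 2 gave 1.72 for Mir9-2 and 2.19 for Mir9-3. With the first component kept, Mir9-3 gave 1.17 in the cluster matched to cluster 2 and 1.25 in that matched to cluster 1, which was ahead at all 3 loci. These matched clusters held partly other cells (adjusted Rand index 0.354). Of their cells, 46.2% came from cluster 2 and 67.3% from cluster 1, respectively. With 4 clusters (index 0.516) no ratio left its interval. Of the 5 regions most like the 3 loci, 1 was among the first 5 in the deeper cells. The causes were not tested. No paired analysis was possible because there is 1 group.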
